A study of Homo sapiens with 8 samples.

Results

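*ALAS2* and *SLC25A37* are 2 of the 92 genes of a targeted transcript panel that was read in K562 cells, a human erythroleukaemia line, after the dosage of 4 regulators had been moved up or down in small steps. The authors picked most panel genes because they had responded to inhibition of *GFI1B* or *NFE2*, 2 of these regulators, in earlier data. Shares of the panel given below are therefore not those of a random set of genes. They were chosen by name, as the genes of the panel for erythroid heme synthesis and for mitochondrial iron import. No rule on their values was used, but earlier results of these data were known. Their rows hold 362 of the 16652 log2 fold changes (log2(FC)) of the series, 1 for each gene in each of 181 perturbations. A perturbation is 1 sgRNA in 1 cell line, and its log2(FC) compares the cells that carry that sgRNA with the non-targeting control (NTC) cells of the same line.

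Heme is built by a chain of enzymes that begins and ends in the mitochondrion. *ALAS2* encodes the erythroid form of 5-aminolevulinate synthase, which joins glycine to succinyl-CoA in the first and rate-limiting step, and *SLC25A37* encodes mitoferrin-1, the carrier of the inner mitochondrial membrane that brings in the iron for the last step. Both genes rise as red cell precursors mature, and loss of *ALAS2* function causes X-linked sideroblastic anaemia. Of the 4 modulated (*cis*) genes, *MYB* encodes a transcription factor of immature, dividing progenitors, *GFI1B* a repressor needed for red cell and platelet development, *NFE2* the larger subunit of NF-E2, which binds control regions of globin and platelet genes, and *TET2* an enzyme that oxidises methylated cytosine in DNA.

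In the CRISPRi line transcription is repressed at the site an sgRNA targets, and in the CRISPRa line, which was grown from 1 clone, it is activated there by dCas9-VPR. Cells of both lines took up 1 pool of sgRNAs, were selected with antibiotics and were read on day 8 by ECCITE-seq, which captures RNA, sgRNA and a hashing antibody from the same cell. *GFI1B* was the target in 50 perturbations, *MYB* in 48, *NFE2* in 43 and *TET2* in 40, and each rested on 11 to 567 cells against 536 NTC cells in CRISPRi and 323 in CRISPRa. Each line was 1 culture, so p-values here measure the spread between sgRNAs and not between cultures, and all values of a line share the same NTC cells. Baseline levels of the genes were not used here, so K562 was not checked against the levels of erythroid markers.

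The sgRNAs behind the values that follow are shown with the protospacer in lower case and the PAM in capitals, 5′ to 3′. The first group, at the start of *MYB*, is shown because it gave the highest *ALAS2* values, the second, at distal *MYB* elements, because it gave the lowest of the *MYB* perturbations, and the third because it gave the highest *ALAS2* values among the perturbations of *GFI1B*.
MYB_14: gaaacttcgccccagcggtgCGG
MYB_15: gcgccatggcccgaagacccCGG
MYB_16: tttggacaggttgcgtggaaGGG
MYB_17: agttctggatagcacgatcaGGG
MYB_18: ttaaaaacgcctatagcaatGGG
MYB_19: gataatgtctccgcgatggaTGG
GFI1B_5: cgtgccgctccaagtgtcgaGGG
GFI1B_20: gctggaaaccgtcacggttaAGG
In hg38 with GENCODE 44, MYB_14 (chr6:135181383-135181402, plus strand) lies in the untranslated part of exon 1 of the canonical *MYB* transcript and MYB_15 (chr6:135181509-135181528, plus strand) in the coding part of the same exon. MYB_16 (chr6:135093104-135093123, minus strand) falls inside *HBS1L*, MYB_17 (chr6:135147484-135147503, minus strand) inside no protein-coding gene, and MYB_18 (chr6:135307062-135307081, plus strand) and MYB_19 (chr6:135323256-135323275, plus strand) inside *AHI1*. GFI1B_5 (chr9:132978515-132978534, plus strand) lies within the *GFI1B* gene but outside its canonical transcript, and the enhancer sgRNA GFI1B_20 (chr9:133004178-133004197, plus strand) lies in no protein-coding gene.

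*ALAS2* lay lower where *MYB* dosage was higher, with little change among the lowest dosages. In the 24 CRISPRi perturbations of *MYB*, *ALAS2* had a lowest log2(FC) of -0.13, a median of 0.36 and a highest of 0.78, and 23 of the 24 lay above 0. Of the 6 with a *MYB* dosage within 0.1 of 0, 5 lay above 0 as well, with a median of 0.13. The 5 sgRNAs that took *MYB* below -0.80 gave *ALAS2* values between 0.73 and 0.78, with a mean of 0.76 ± 0.02 (SD, n = 5). The attenuated sgRNA MYB_24 (67 cells) already gave 0.74, at a *MYB* dosage no lower than -0.70. The TSS sgRNAs MYB_14 and MYB_15 held *MYB* at -0.94 each, and *ALAS2* stood at 0.77 and 0.78, the latter a 1.72-fold level relative to the NTC cells. This fold level reads the value as a plain ratio, with no constant added before the log.

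In the 24 CRISPRa perturbations *ALAS2* ran from -0.57 to 0.40 with a median of -0.09, although *MYB* rose by no more than 0.18 there. The 2 lines thus overlapped between -0.13 and 0.40 and parted at the ends of the range. Each value averages the cells of 1 sgRNA, so a smaller share of cells with the transcript and less transcript per cell cannot be told apart. Over both lines the slope of *ALAS2* was -0.98 ± 0.07 log2 units per log2 unit of *MYB* (SE, n = 48, limma, adjusted p = 3.6e-17), ranked 1 of 91 *trans* genes by steepness. It was -0.77 in CRISPRi alone, -2.15 in CRISPRa alone and -0.86 with a term for the line, and each was called, as were 78% of the genes in CRISPRi, 37.4% in CRISPRa and 78% with the line term. The slopes of the 2 lines differed (line interaction, limma, adjusted p = 0.000304 for *ALAS2* and 0.00507 for *SLC25A37*), with 19.8% of genes called.

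*SLC25A37* followed the same direction on a smaller scale. Its CRISPRi values ran from -0.02 to 0.19 with a median of 0.08 (21 of 24 above 0), and its CRISPRa values from -0.11 to 0.08 with a median of -0.03. MYB_14, MYB_15 and the tiling sgRNA MYB_12 gave 0.17, 0.16 and 0.19. The slope was -0.21 ± 0.014 (SE, n = 48, limma, adjusted p = 4.84e-18), and it was -0.16 in CRISPRi alone, -0.38 in CRISPRa alone and -0.18 with a term for the line. Both genes were thus among the 24 of 91 genes that fell as *MYB* rose (26.4%), while 81.3% of the genes were called in either direction.

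**Figure D1:**
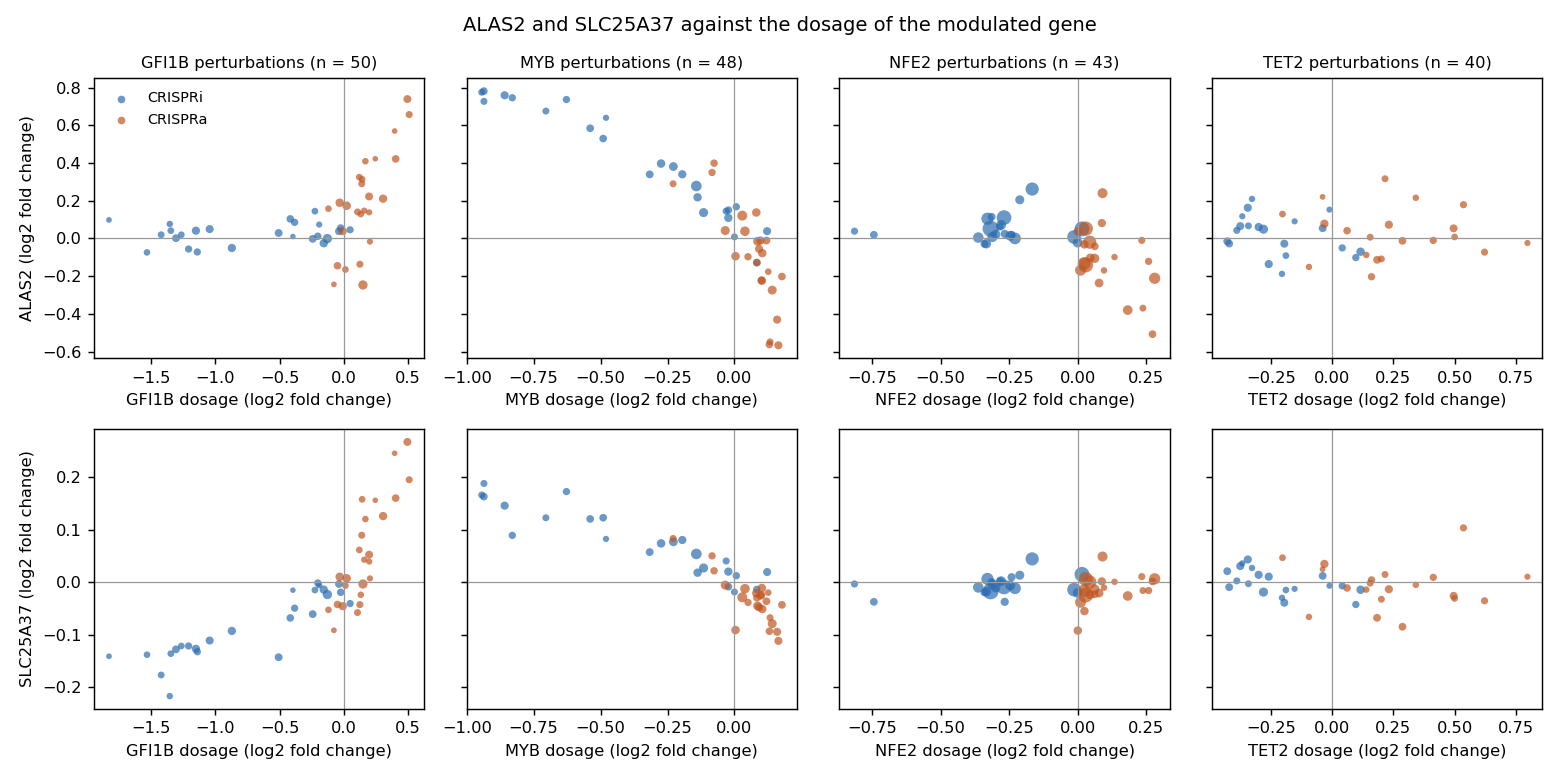
Log2 fold change of *ALAS2* (top) and *SLC25A37* (bottom) against the log2 fold change of the modulated gene, 1 point per perturbation, blue for CRISPRi and orange for CRISPRa, with larger points for more cells. *ALAS2* falls from 0.78 to -0.57 along *MYB* dosage, stays near 0 at low *GFI1B* and reaches 0.74 at high *GFI1B*, whereas *SLC25A37* falls to -0.22 at low *GFI1B*; the vertical scales of the 2 rows differ.

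The 4 distal *MYB* sgRNAs stood apart in CRISPRa. MYB_16, MYB_17, MYB_18 and MYB_19 raised *MYB* by 0.13, 0.16, 0.13 and 0.16, and *ALAS2* was at -0.56, -0.43, -0.55 and -0.57, the lowest 4 values of the *MYB* perturbations. The other 7 CRISPRa perturbations with a *MYB* dosage of at least 0.1 gave *ALAS2* values between -0.27 and -0.01, among them -0.20 for MYB_7, which reached the highest *MYB* dosage of all (0.18). *SLC25A37* was at -0.09, -0.09, -0.07 and -0.11 with the distal sgRNAs and between -0.08 and -0.01 with the other 7. These sgRNAs were singled out after their values were seen and were not tested against the rest. In CRISPRi the same MYB_19 took *MYB* to -0.48 (32 cells), and *ALAS2* was at 0.64.

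The response of *ALAS2* to *MYB* was steeper above unchanged dosage than below it. A fit with separate slopes gave -0.72 below 0 and -3.07 above 0, a change of -2.35 ± 0.41 (SE, n = 48, limma, adjusted p = 7.14e-06), with 9.89% of 91 genes called for such a change. The break was set at 0 in this fit, which therefore cannot place the bend. For *SLC25A37* the slopes were -0.18 and -0.48, a change of -0.30 ± 0.10 (SE, limma, adjusted p = 0.0173) that was no longer called with a term for the line (-0.21, adjusted p = 0.147, 5.49% of genes called). Without the enhancer sgRNAs, an alternative chosen after seeing the data, the change was -1.43 for *ALAS2* (limma, adjusted p = 0.00492) and -0.15 for *SLC25A37* (adjusted p = 0.422). Most dosages below 0 came from CRISPRi and most above 0 from CRISPRa, so a bend and a difference between lines cannot be told apart.

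*GFI1B* dosage separated the 2 genes within each line, though their slopes over both lines were alike. When *GFI1B* was lowered, *SLC25A37* fell and *ALAS2* stayed near the NTC level, and where *GFI1B* was raised most both genes rose. In the 25 CRISPRi perturbations, in which *GFI1B* went as low as -1.83, *ALAS2* ran from -0.07 to 0.14 with a median of 0.03. *SLC25A37* ran from -0.22 to -0.0017 with a median of -0.09, and 25 of 25 values lay below 0. The 3 of these with a *GFI1B* dosage within 0.1 of 0 also lay below 0 (median -0.019). Over all *cis* genes and both lines, 37 of the 52 perturbations with such a dosage did, so the sign alone does not mark a response.

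The 11 perturbations with *GFI1B* below -1 show the contrast most plainly. *ALAS2* lay between -0.07 and 0.10 in them and *SLC25A37* between -0.22 and -0.11, so that the ranges of the 2 genes did not meet. With the TSS sgRNAs GFI1B_13 and GFI1B_14, at dosages of -1.14 and -1.35, *ALAS2* was at -0.07 and 0.04 and *SLC25A37* at -0.13 and -0.14. Within CRISPRi the slope on *GFI1B* was 0.020 ± 0.019 for *ALAS2* (SE, n = 25, limma, adjusted p = 0.422, 95% interval -0.019 to 0.059) and 0.095 ± 0.011 for *SLC25A37* (adjusted p = 3.96e-08), with 72.5% of genes called. The difference between these slopes was -0.075 (permutation test within CRISPRi, p = 0.00314, adjusted over 4 *cis* genes p = 0.00628), a comparison chosen after seeing the data. The planned comparisons gave no call. The difference was 0.0049 over both lines (permutation test, p = 0.88). With dosages permuted within each line and a term for the line it was -0.019 (permutation test, adjusted p = 0.546).

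In the 25 CRISPRa perturbations of *GFI1B*, *ALAS2* ran from -0.25 to 0.74 with a median of 0.17 (19 above 0) and *SLC25A37* from -0.09 to 0.27 with a median of 0.04 (16 above 0). The lowest *ALAS2* value came from the tiling sgRNA GFI1B_2 (147 cells) at a *GFI1B* dosage above 0.1, so not every rise of *GFI1B* went with a rise of *ALAS2*. The 5 with a *GFI1B* dosage above 0.3 gave *ALAS2* values of 0.21 to 0.74 (0.52 ± 0.21, SD, n = 5) and *SLC25A37* values of 0.13 to 0.27 (0.20 ± 0.06). GFI1B_5, at a dosage of 0.49, gave the highest values of both, 0.74 for *ALAS2* and 0.27 for *SLC25A37*. GFI1B_20, at 0.51, gave 0.66 and 0.20. Within CRISPRa the slope was 1.16 ± 0.22 for *ALAS2* (SE, n = 25, limma, adjusted p = 0.000173) and 0.51 ± 0.064 for *SLC25A37* (adjusted p = 1.59e-06), with 64.8% of genes called, and the slopes of the lines differed for both (line interaction, limma, adjusted p = 4.09e-07 and 3.53e-08, 64.8% of genes called). Without GFI1B_5 and GFI1B_20 of CRISPRa, an alternative chosen after seeing the data, they were 0.96 (adjusted p = 0.0123) and 0.51 (adjusted p = 0.000114).

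Over both lines the slope on *GFI1B* was 0.15 ± 0.042 for *ALAS2* (SE, n = 50, limma, adjusted p = 0.00226) and 0.14 ± 0.015 for *SLC25A37* (adjusted p = 3.83e-12). With dosages limited to between -1 and 0.58 it was 0.47 ± 0.10 for *ALAS2* and 0.26 ± 0.035 for *SLC25A37* (SE, n = 39, limma, adjusted p = 0.000164 and 2.32e-08). A total of 38.5% of 91 genes rose with *GFI1B* and 75.8% were called in either direction. A term for the line left *SLC25A37* at 0.13 (adjusted p = 1.99e-06) and took the call from *ALAS2* (0.11, adjusted p = 0.169), with 60.4% of genes called. With the break set at 0, a change of slope was called for both, from -0.015 below 0 to 1.21 above 0 for *ALAS2* (change of 1.22 ± 0.17, SE, limma, adjusted p = 9.7e-08) and from 0.084 to 0.52 for *SLC25A37* (0.44 ± 0.058, adjusted p = 2.52e-08), with 67% of 91 genes called for a change.

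**Figure D2:**
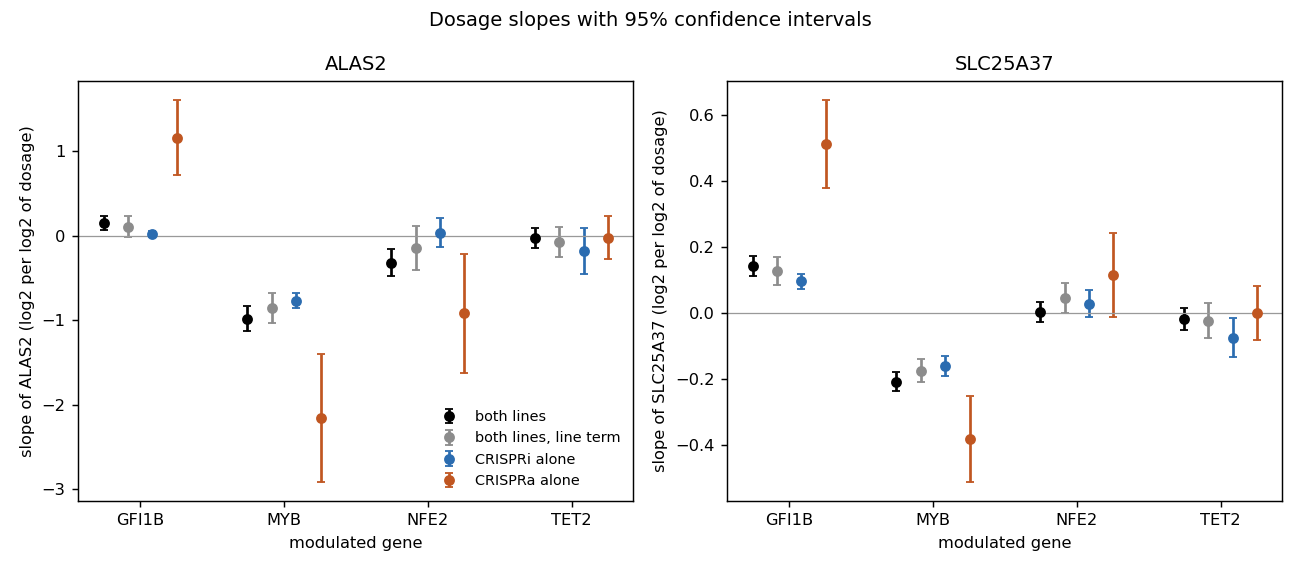
Slope of *ALAS2* (left) and *SLC25A37* (right) on the dosage of each *cis* gene, in log2 units per log2 unit, with 95% confidence intervals from limma, for both lines, both lines with a line term, CRISPRi alone and CRISPRa alone. On *GFI1B*, *ALAS2* has a slope of 0.020 in CRISPRi and 1.16 in CRISPRa, and on *NFE2* its sign differs between 0.037 in CRISPRi and -0.92 in CRISPRa.

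*MYB* itself moved when *GFI1B* was perturbed. In CRISPRi against *GFI1B* its log2(FC) was between 0.01 and 0.35, and in CRISPRa between -1.01 and 0.13. GFI1B_5 and GFI1B_20 in CRISPRa left *MYB* at -0.95 and -1.01, close to the -0.94 that MYB_14 and MYB_15 gave in CRISPRi. At these like *MYB* levels *ALAS2* was at 0.74 and 0.66 with the *GFI1B* sgRNAs and at 0.77 and 0.78 with the *MYB* sgRNAs, and *SLC25A37* was at 0.27 and 0.20 against 0.17 and 0.16. The 2 pairs come from different lines with different NTC cells, and were not tested.

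Where *MYB* rose with *GFI1B* strongly lowered, the 2 genes parted. In the 11 perturbations with *GFI1B* below -1, *MYB* was between 0.24 and 0.35, above any value that the *MYB* sgRNAs reached, and *ALAS2* was within 0.10 of 0 while *SLC25A37* was lower by at least 0.11. As a description over perturbations that share cells, normalization and NTC cells, the Pearson r with *MYB* in the *GFI1B* perturbations was -0.80 for *ALAS2* and -0.80 for *SLC25A37* in CRISPRa (n = 25), and -0.19 and -0.81 in CRISPRi (n = 25). The part of *MYB* in the responses to *GFI1B* was not tested.

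**Figure D3:**
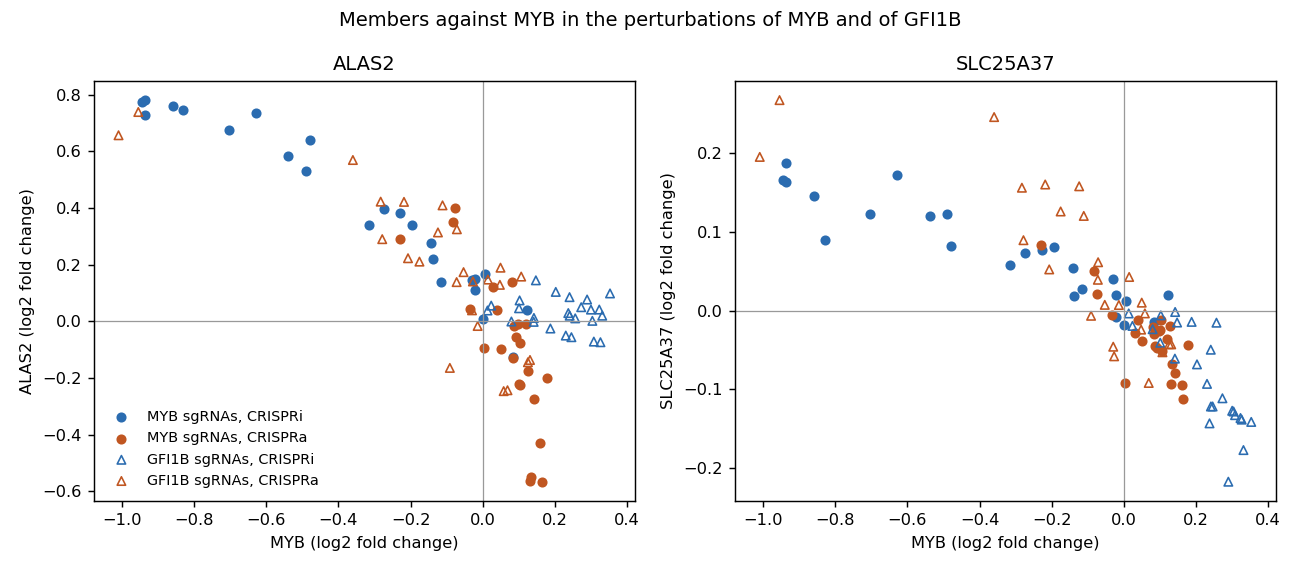
Log2 fold change of *ALAS2* (left) and *SLC25A37* (right) against that of *MYB*, for *MYB* sgRNAs (filled circles) and *GFI1B* sgRNAs (open triangles), blue for CRISPRi and orange for CRISPRa. The *GFI1B* perturbations with *MYB* between 0.24 and 0.35 keep *ALAS2* near 0, apart from the *MYB* perturbations in CRISPRa that reach -0.57, while *SLC25A37* goes down to -0.22.

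*ALAS2* lay lower where *NFE2* was raised, and no slope of *SLC25A37* on *NFE2* was called. In the 22 CRISPRi perturbations *ALAS2* ran from -0.03 to 0.26 with a median of 0.02. With the distal sgRNAs NFE2_17 and NFE2_16, which took *NFE2* to -0.81 and -0.74, it stood at 0.04 and 0.02. In the 21 CRISPRa perturbations it ran from -0.51 to 0.24 with a median of -0.11, and 4 of 21 lay above 0. The lowest value, -0.51, belonged to the tiling sgRNA NFE2_6 at a dosage of 0.27. The TSS pair of CRISPRa lay far apart, with *ALAS2* at 0.24 for NFE2_14 (dosage 0.09, 182 cells) and at -0.37 for NFE2_15 (dosage 0.24, 53 cells).

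Over both lines the slope of *ALAS2* on *NFE2* was -0.32 ± 0.079 (SE, n = 43, limma, adjusted p = 0.000509), with 31.9% of 91 genes called in that direction and 67% in either. It was not called with a term for the line (-0.14, adjusted p = 0.4, 29.7% of genes called) or in CRISPRi alone, where its sign turned (0.037, adjusted p = 0.747, 28.6% called). In CRISPRa alone it was -0.92 ± 0.34 (SE, n = 21, limma, adjusted p = 0.0408, 31.9% called), and it differed between the lines (line interaction, adjusted p = 0.0125, 20.9% called). With the break set at 0, it changed from -0.069 below 0 to -1.10 above 0 (limma, adjusted p = 0.0074, 22% called). Without the enhancer sgRNAs the slope over both lines was -0.48 (adjusted p = 6.08e-05). Within CRISPRa, leaving out NFE2_1, NFE2_6, NFE2_10, NFE2_13, NFE2_15, NFE2_18, NFE2_20 or NFE2_21 in turn ended the call, and without NFE2_6 the slope was -0.65 (adjusted p = 0.17). *SLC25A37* stayed between -0.09 and 0.05 over the 43 perturbations, with a slope of 0.0022 ± 0.014 (SE, limma, adjusted p = 0.904, 95% interval -0.027 to 0.031).

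The perturbations of *TET2* served as a background in which few genes moved (11% of 91 called). *ALAS2* ran from -0.20 to 0.32 over the 40 perturbations and *SLC25A37* from -0.09 to 0.10, with slopes of -0.024 ± 0.059 and -0.019 ± 0.017 (SE, limma, adjusted p = 0.75 and 0.351). In CRISPRi alone *SLC25A37* had a slope of -0.075 (n = 20, limma, adjusted p = 0.032, 11% of genes called), lost on leaving out TET2_6, TET2_9, TET2_18 or TET2_20 (0.116 at most), and the full fit gained the call on leaving out TET2_7 of CRISPRa (-0.036, adjusted p = 0.0351). The SD of *ALAS2* over the *TET2* perturbations was 0.11 in CRISPRi and 0.14 in CRISPRa (n = 20 each), against medians of 0.049 and 0.064 over the 91 genes, and that of *SLC25A37* was 0.024 and 0.043. *ALAS2* thus scattered more than the median gene over sgRNAs with few called responses, and *SLC25A37* less.

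The panel holds 18 capture baits for *ALAS2* (ENSG00000158578) and 62 for *SLC25A37* (ENSG00000147454), with a median of 35 per gene. The part of bait number in the wider scatter of *ALAS2* was not tested. *LHX3*, a panel gene that blood progenitors do not express, has the same log2(FC) of -0.015 in 80 of 91 CRISPRi perturbations and of -0.012 in 85 of 90 CRISPRa perturbations. For cells that hold no transcript of a gene, a finite value needs a constant added before the log, so these shared values point to such a constant. Its size, and how far it moved the values of *ALAS2* and *SLC25A37*, was not tested. Fold levels, and slope sizes compared between genes, may depend on it.

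Although *ALAS2* and *SLC25A37* serve the same pathway, their slopes on *MYB* differed in size. On *GFI1B* and *NFE2* the difference varied with how the lines were treated. The slope of *ALAS2* minus that of *SLC25A37* was -0.77 on *MYB* (permutation test, 100000 resamples, two-sided, p = 1e-05, the smallest they can give, adjusted p = 4e-05) and -0.32 on *NFE2* (p = 0.0002, adjusted p = 0.0004). On *GFI1B* it was 0.0049 (permutation test, p = 0.88), and on *TET2* -0.0046 (permutation test, p = 0.93). The *GFI1B* value hid opposite differences, of -0.075 in CRISPRi and 0.65 in CRISPRa (permutation test within CRISPRa, p = 0.00169, adjusted p = 0.00338). These differences within 1 line were chosen after seeing the data. In a permutation test with dosages permuted within each line and a term for the line, the difference was -0.68 on *MYB* (adjusted p = 4e-05) and -0.19 on *NFE2* (p = 0.0416, adjusted p = 0.0832).

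The same cells gave both values of each perturbation, and these were of the same sign in 42 of the 48 *MYB* perturbations, 27 of the 50 against *GFI1B*, 26 of the 43 against *NFE2* and 25 of the 40 against *TET2*. As a description, the Pearson r between the 2 genes was 0.93 and 0.82 in the CRISPRi and CRISPRa perturbations of *MYB* (n = 24 each), 0.16 and 0.87 in those of *GFI1B* (n = 25 each), 0.73 and 0.16 in those of *NFE2* (n = 22 and 21), and 0.61 and 0.56 in those of *TET2* (n = 20 each). The points of a line share NTC cells and the depth of each cell.

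**Figure D4:**
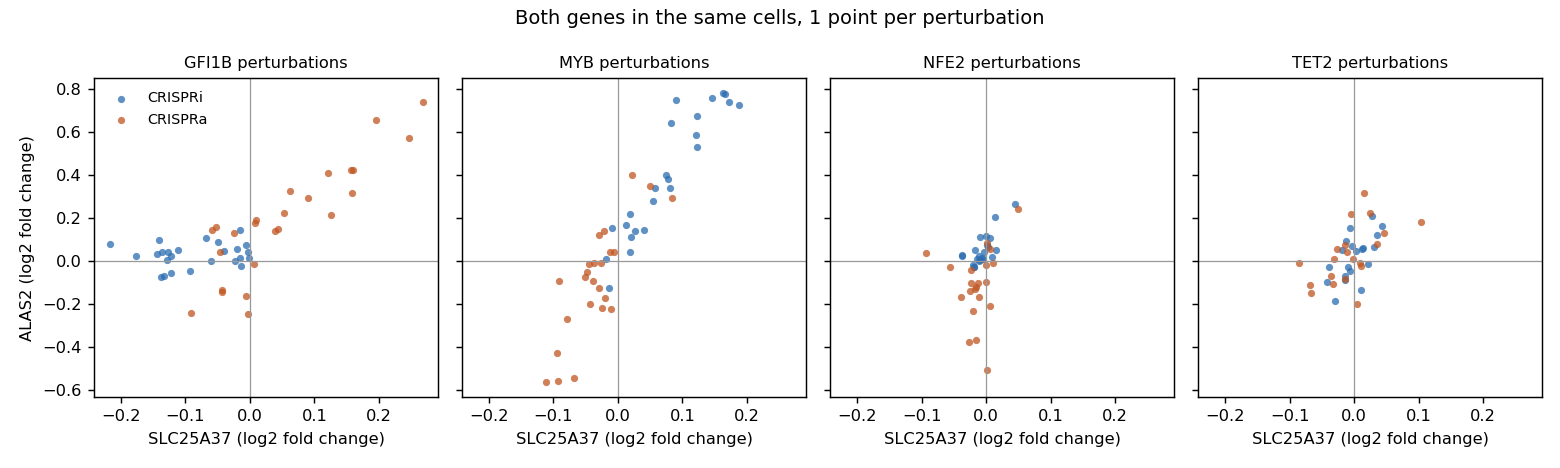
*ALAS2* against *SLC25A37* (log2 fold changes), 1 point per perturbation, with 1 panel for each *cis* gene, blue for CRISPRi and orange for CRISPRa. The points rise along 1 line for *MYB*, split for *GFI1B* into a flat CRISPRi arm between -0.07 and 0.14 of *ALAS2* and a rising CRISPRa arm, and scatter mainly along *ALAS2* for *NFE2* and *TET2*.

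Contrasts between the factors were fitted in 1 model over the perturbations of *GFI1B*, *MYB* and *NFE2*. The slope on *GFI1B* exceeded that on *MYB* by 1.13 ± 0.08 for *ALAS2* and by 0.35 ± 0.022 for *SLC25A37* (SE, limma, adjusted p = 4.89e-27 and 1.02e-31, 83% of 88 genes called), and by 0.96 and 0.30 with a term for the line (79.5% called). The slope on *MYB* lay below that on *NFE2*, with a difference of -0.66 ± 0.12 for *ALAS2* and -0.21 ± 0.034 for *SLC25A37* (limma, adjusted p = 6.7e-07 and 1.07e-08, 64.8% called). The differences between *GFI1B* and *NFE2*, 0.47 and 0.14 (limma, adjusted p = 5.05e-05 and 8.77e-06, 77.3% called), were lost with a term for the line (0.25 and 0.083, adjusted p = 0.215 and 0.127, 40.9% called).

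A line was compared with a 4-parameter sigmoid for each gene, by the difference in AIC (line minus sigmoid), where larger values favour the sigmoid. On *MYB* this difference was 21.3 for *ALAS2* and 11.8 for *SLC25A37*, the ranks 2 and 4 of 91 genes with a median of -1.20. On *GFI1B* it was 33.7 and 31.2, with a median of 13.5 over the genes, and 16.2 and 16.4 with dosages limited to between -1 and 0.58. On *NFE2* it was 8.51 for *ALAS2* and -2.76 for *SLC25A37* (median 1.83). The line accounted for 80.2% of the variance of *ALAS2* over *MYB* dosage and the sigmoid for 88.3%, whereas on *GFI1B* the shares were 19.6% and 62.2%. On *MYB* the fitted midpoints, 0.29 and 0.27, lay above the highest dosage, 0.18. On *GFI1B*, where dosage reached 0.51, they were 0.39 for *ALAS2* and 0.74 for *SLC25A37*. With at least 30 cells these 2 were 0.65 and 0.71, and with the limited dosages 0.40 and 0.27. Whether either midpoint on *GFI1B* lay within range was therefore not settled. Where the midpoint was out of range, the difference in AIC shows a curve and no plateau at high dosage. A curve and a difference between lines cannot be told apart here either.

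The genes most like *ALAS2* over the 141 perturbations of *GFI1B*, *MYB* and *NFE2* were *HBZ* (Pearson r = 0.80), which encodes the embryonic zeta globin chain, *SLC25A37* (0.74), *ABRAXAS1* (0.63), *BTG2* (0.62) and *FAM210B* (0.62), a mitochondrial membrane protein linked to heme synthesis. The most opposite were *MAZ* (-0.83), *GAPDH* (-0.83), a glycolytic enzyme, and *TAGLN2* (-0.79). The authors included *GAPDH* as a control with high and constant expression. The part of normalization in its opposite movement was not tested. Among those most like *SLC25A37* were *BTG2* (0.81), an inhibitor of cell division, *TUBB1* (0.78), the beta-tubulin of platelets, *HBZ* (0.78) and *CA1* (0.77), a carbonic anhydrase of red cells. The most opposite were *SMIM30* (-0.90), *TAGLN2* (-0.87) and *PRMT1* (-0.86), an arginine methyltransferase. *ALAS2* ranked only 9 for *SLC25A37* (0.74). These r are descriptions over perturbations that share NTC cells, normalization and, within a *cis* gene, the direction of the dosage.

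Of the other genes of heme, globin, red cell membrane and erythroid enzyme lists, 6 that are on the panel are described here. On *MYB*, 5 of the 6 fell as dosage rose and none rose, against 26.4% of all 91 genes that fell, with a median slope of -0.29 against 0.057 over all genes. *RHD*, which encodes the Rh D antigen, had a slope of -0.58 ± 0.036, *CA1* -0.57 ± 0.055 and *HBZ* -0.41 ± 0.046 (SE, n = 48, limma, adjusted p from 2.04e-19 to 3.66e-11), each less steep than *ALAS2*. *ERMAP*, a blood group protein, was at -0.16, *EIF2AK1*, the kinase that halts globin translation when heme is scarce, at -0.041, and *SPTB*, the red cell beta spectrin, was not called (-0.036, adjusted p = 0.523).

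On *GFI1B*, 4 of the 6 rose and none fell, against 38.5% of all genes that rose (median slope 0.20 against -0.0022 over all genes). With a term for the line 3 of the 6 were called upwards, when 60.4% of all genes were called in either direction. Over both lines without that term, *CA1* (0.58 ± 0.054), *RHD* (0.43 ± 0.030) and *SPTB* (0.25 ± 0.037) had larger slopes than *ALAS2* and *SLC25A37*, differences that were not tested. *EIF2AK1* and *ERMAP* were not called there (-0.0025 and 0.024, adjusted p = 0.75 and 0.336). The slope of *HBZ*, like that of *ALAS2*, was called over both lines (0.16, adjusted p = 7.8e-06) and lost with a term for the line (0.078, adjusted p = 0.124). On *NFE2*, 4 of the 6 fell, against 31.9% of all genes. With a term for the line 1 of the 6 did, *ERMAP* (-0.15, limma, adjusted p = 0.0138), when 29.7% of all genes were called in either direction.

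Of 2 further iron and heme genes that were picked once the panel had been read, *FAM210B* followed *ALAS2* on a small scale, with slopes of 0.074 on *GFI1B* and -0.10 on *MYB* (limma, adjusted p = 0.000228 and 1.83e-08). *GLRX3*, a glutaredoxin that handles iron-sulfur clusters, went the other way on *MYB* (0.090, adjusted p = 2.39e-13). Of 15 markers of other lineages, 3 are on the panel. The platelet gene *TUBB1* had slopes of 0.83 on *GFI1B*, -0.81 on *MYB* and 1.03 on *NFE2* (limma, adjusted p from 6.51e-19 to 1.51e-14), the myeloid factor gene *SPI1* -0.83, -0.23 and 0.18 (adjusted p from 2.48e-20 to 0.0107), and *SRGN*, a proteoglycan of storage granules, 0.036, 0.023 and 0.42, of which the one on *MYB* was not called (adjusted p = 0.186). With a term for the line, *SPI1* on *NFE2* and *SRGN* on *GFI1B* were not called either (0.020 and 0.039, adjusted p = 0.896 and 0.118). On *MYB*, *TUBB1* and *SPI1* fell together with *ALAS2* and *SLC25A37*, and their part in these results was not tested.

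**Figure D5:**
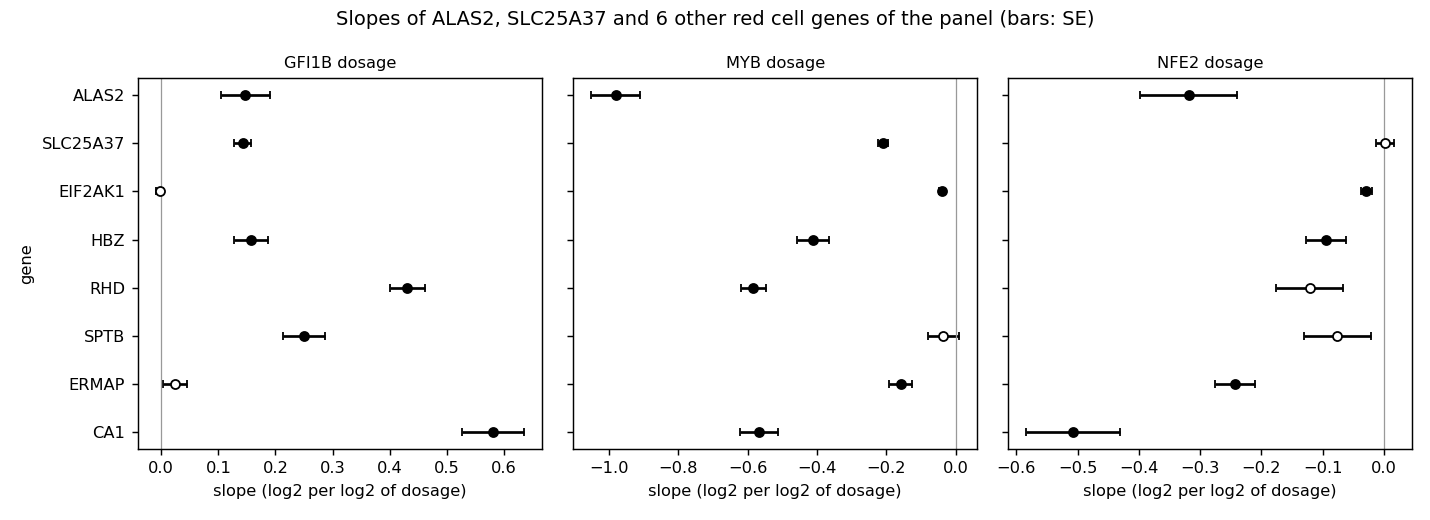
Slope on the dosage of *GFI1B*, *MYB* and *NFE2* for *ALAS2*, *SLC25A37* and 6 other red cell genes of the panel, in log2 units per log2 unit, with SE bars from limma over both lines, filled where the adjusted p is under 0.05. *ALAS2* has the steepest slope of these genes on *MYB* (-0.98) but a small one on *GFI1B* (0.15), where *CA1* has 0.58.

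*ALAS2* lies on chromosome X at chrX:55009055-55030977 on the minus strand (hg38, GENCODE 44), and its canonical transcript has 11 exons. The 250 bases before its start (RefSeq, GRCh38.p14, chrX:55030978-55031227, minus strand) are shown because the factors perturbed here act on promoters and enhancers, with the matches to 2 searched motifs in capitals.
ALAS2 promoter: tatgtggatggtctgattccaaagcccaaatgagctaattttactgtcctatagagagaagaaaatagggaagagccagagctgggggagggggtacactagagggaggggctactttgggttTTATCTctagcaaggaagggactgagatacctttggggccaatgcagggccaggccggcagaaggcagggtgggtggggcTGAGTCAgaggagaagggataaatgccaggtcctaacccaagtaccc
The first is a GATA site read on the other strand (AGATAA, at 127 to 122 bases before the start), from a search on both strands for the words AGATAA, then TGATAA, then AGATAG and then TGATAG, which matched in 22.3% of 35116 RefSeq promoter windows of this length. The second is TGAGTCA, the core of the NF-E2 motif (47 to 41 bases before the start), found in 4.20% of the windows. The letters AAATC, taken for the core of a GFI1B motif (29.9% of windows), and CAACNG or TAACNG, taken for a MYB motif (39.3%), were not in this window. A match is a string of letters and no measured site, and binding was not measured here. Among the 72 panel genes with a window, 15 held a GATA match and 4 the TGAGTCA core. Of the 2 genes, *ALAS2* matched the promoter table by symbol and *SLC25A37* did not.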

How the data were processed

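The analysis began from the table the authors deposited, in which each value is a log2 fold change of 1 gene between the cells of 1 sgRNA and the NTC cells of the same line. The authors aligned reads with Cell Ranger for a targeted panel (GRCh38), counted hashing tags with alevin, removed cells under 500 UMIs or 50 genes, the top 1% by UMIs and cells with more than 1 sgRNA, and normalized with Seurat. The methods write a natural log but the deposited column is named log2, which was followed here. P-values and false discovery rates of the authors, computed over cells, were not used. Depth is given as cells per perturbation. The CRISPRi and CRISPRa lines were 1 culture each.

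For each *cis* gene, limma 3.58.1 (R 4.3.3) fitted the log2(FC) of the 91 other genes on dosage, the log2(FC) of the *cis* gene, with equal weights and no covariate, over all perturbations of both lines. Benjamini-Hochberg adjustment ran over all 364 tests, with a threshold of 0.05. A line term, each line alone, a line interaction and a slope that may change at 0 were fitted in the same way. The slope of the difference between the 2 genes was tested by permutation. The sigmoid was fitted on a grid of 81 midpoints and 45 steepness values. The limma fit was tested on simulated data with 1000 genes and a noise SD of 0.061, less than the residual SD of *ALAS2* (0.19 on *GFI1B*), where a slope of 0.3 was called in 100% of genes for each *cis* gene and a slope of 0.1 in 50% (*NFE2*) to 100% (*GFI1B*). The named genes were the 2 members, the 5 most and 3 least like each, and panel genes of listed heme, globin, membrane and erythroid genes. An item of these lists is not reported here. The named perturbations were the extremes, the TSS pairs and the ends of the dosage range, plus the distal *MYB* sgRNAs. The members, lists and tests were chosen with earlier results of these data known. Alternatives were a line term, each line, at least 30 cells, weights by cells, no attenuated sgRNAs, a dosage range, robust regression, the sgRNA as a block and leaving out perturbations.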

Additional observations from a re-analysis of the deposited data

Results flagged for a closer look

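The slopes on dosage differed between the lines for 5 pairs of gene and *cis* gene, by the line interaction in limma. For *ALAS2* the CRISPRi slope minus the CRISPRa slope was -1.14 on *GFI1B* (0.020 against 1.16, adjusted p = 4.09e-07), 1.39 on *MYB* (-0.77 against -2.15, adjusted p = 0.000304) and 0.96 on *NFE2* (0.037 against -0.92, adjusted p = 0.0125). For *SLC25A37* it was -0.42 on *GFI1B* (0.095 against 0.51, adjusted p = 3.53e-08) and 0.22 on *MYB* (-0.16 against -0.38, adjusted p = 0.00507). Of the 91 genes, 64.8% differed in this way on *GFI1B*, 19.8% on *MYB* and 20.9% on *NFE2*. Without the enhancer sgRNAs the *MYB* differences were 0.84 for *ALAS2* (adjusted p = 0.0105) and 0.16 for *SLC25A37* (adjusted p = 0.0893). The 2 lines cover different dosages, so line and dosage range cannot be told apart.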

How the results depend on the processing

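Of 172 alternative values of tested results, 149 kept their direction and their side of the threshold, 32 of 40 counts of genes stayed within 1.5 times the count reported, and 15 of 16 differences in AIC stayed on their side of 2. These totals overstate the stability. The limits of at least 30 cells and of dosage removed no perturbation of *MYB* or *NFE2*. Those repeats are the main fits again and are counted as kept. The slope of *ALAS2* on *GFI1B* lost its call with a term for the line (0.11), with the sgRNA as a block (0.11) and in CRISPRi alone (0.020). With a limited dosage range it was 0.47, and that of *SLC25A37* 0.26, both called. That of *ALAS2* on *NFE2* lost the call with the line term (-0.14) and the block (-0.14) and turned in CRISPRi alone (0.037). The uncalled slope of *ALAS2* on *TET2* turned to 0.0015 without the 2 farthest dosages or with a limited dosage range. The uncalled slope of *SLC25A37* on *NFE2* turned to -0.0049 without the 2 farthest dosages, to -0.0091 without the enhancer sgRNAs and to -0.0056 without NFE2_16 of CRISPRi. Its slope on *TET2* was called in CRISPRi alone (-0.075) and without TET2_7 of CRISPRa (-0.036). Leaving out 1 perturbation at a time gave *ALAS2* slopes of 0.12 to 0.17 on *GFI1B*, -1.01 to -0.96 on *MYB*, -0.37 to -0.27 on *NFE2* and -0.048 to -0.0075 on *TET2*, and *SLC25A37* slopes of 0.13 to 0.15, -0.22 to -0.20, -0.0056 to 0.0052 and -0.036 to -0.014. The number of genes called on *MYB* was 74, and 34 in CRISPRa alone. On *NFE2* it was 61, and 27 with the line term, 26 in CRISPRi alone, 29 in CRISPRa alone and 26 with the block. On *TET2* it was 10, and 3, 2 (CRISPRa alone) and 3 (block). The change of slope of *SLC25A37* at unchanged *MYB* was lost with the line term (-0.21) and without the enhancer sgRNAs (-0.15), which also ended its difference between lines (0.16). The line term ended the *GFI1B* minus *NFE2* differences (0.25 and 0.083). The *ALAS2* minus *SLC25A37* slope on *GFI1B* was -0.019 within lines, -0.075 in CRISPRi and 0.65 in CRISPRa, and on *NFE2* -0.19 within lines and 0.0092 in CRISPRi. The difference in AIC for *SLC25A37* on *TET2* was 4.71 with a limited dosage range. The causes were not tested. Leaving out the enhancer sgRNAs and GFI1B_5 with GFI1B_20, and the slope differences within 1 line, were chosen after seeing the data. The block paired the lines by sgRNA, and by the numbers in the sample labels no paired analysis was possible because the deposited table pools the numbered lanes.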
